A study of Mus musculus with 68 samples.

Results

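The ERVL family of endogenous retroviruses is best known in mouse embryonic stem cells (ESCs) through MERVL, and the RNA of its other subfamilies is described here. Members were all repeat subfamilies whose family annotation is exactly ERVL, without MERVL-int, MERVL_2A-int and MT2_Mm. This annotation rule, which uses no measured value, gave 110 of the 1146 repeat subfamilies counted in each of 3 total RNA-seq experiments. The related ERVL-MaLR family, with 108 subfamilies, is annotated separately and was not included.

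The study asked how the recycling of parental histones at the replication fork shapes chromatin and transcription. All lines came from the male E14JU ESC line of 129/Ola background and were grown without drug treatment in serum with LIF, and each numbered line is a single edited or parental clone. MCM2-2A cells carry substitutions that disable histone binding by MCM2, a subunit of the replicative helicase, and POLE4-KO cells lack a histone-binding subunit of the leading strand polymerase. In MCM2-R cells the MCM2-2A mutation was reverted. The rescue experiment had 4 cultures each of WT#1, MCM2-2A#2 and MCM2-R#2. The clone experiment had 8 wild-type and 9 MCM2-2A units, each the sum of the libraries of a clone in a batch. The POLE4 experiment had 3 libraries each of WT#1, POLE4-KO#1, POLE4-KO#2 and POLE4-KO#3. The MCM2-R#2 name follows the study's list of lines, whereas the sample labels of those 4 libraries record a wild-type genotype. The paper describes the rescue and POLE4 RNA-seq samples as biological replicates, while the labels do not say how the cultures of a line were grown. The rescue experiment has a single clone per genotype, and the POLE4 experiment a single wild-type clone. The p-values in these experiments therefore measure the spread between samples of a line, not between clones.

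Endogenous retroviruses are remnants of germline infections: a provirus has an internal part with viral genes between 2 long terminal repeats (LTRs), and recombination often leaves a solitary LTR behind. ERVL elements are old, lack an envelope gene and are named after the leucine tRNA that primes their reverse transcription. MERVL and its LTR MT2_Mm are the young and active branch in mouse, transcribed in the early cleavage embryo and in a rare 2-cell-like state of ESC cultures. Histone deacetylation, H3K9 methylation and LSD1 (Kdm1a) hold such elements silent. Most members described here are far older. MLT2, LTR16 and LTR33 are LTRs shared by many mammals, MT2A, MT2B, MT2B1, MT2B2 and MT2C_Mm are rodent relatives of MT2_Mm, and the names of RMER and RLTR elements mark rodent repeats. Where a member's copies lie within introns or exons, its RNA can come from the host transcript as well as from its own LTR, and counts per subfamily do not separate these sources.

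Libraries held 18369200 to 26975100 counts in the POLE4 experiment, 23161100 to 61759100 per culture in the rescue experiment and 63371100 to 180224000 per unit in the clone experiment. The members together took 0.0399% to 0.0766% of these counts. Expression values are counts scaled to 1e+06 per library (CPM), scaled by TMM factors from genes alone. The low-count filter left 74 of the 110 members in the rescue experiment, 98 in the clone experiment and 69 in the POLE4 experiment, and 12 members were tested in none. Untested members had at most 120 counts summed over all samples of an experiment. The 7 pluripotency genes used to check the cell type were tested in every experiment and summed to between 1807 and 3107 CPM in all samples. Because these are bulk samples, fewer cells expressing a repeat and less of its RNA per cell cannot be told apart.

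Few members carried most of the reads. RMER15, a rodent LTR, took 30.9% of all member counts in the rescue experiment, 32.1% in the clone experiment and 35.3% in the POLE4 experiment. MT2B followed with 12% to 12.5%, RMER10A with 7.57% to 9.07% and MT2B1 with 6.16% to 6.68%. The 6 RMER and RLTR members together held 47.0% to 48.5% and the 5 MT2 members 29.9% to 30.7%. The 14 internal parts were low, with about 4.9% of member counts. Subfamilies differ in total genomic length and copy number, so these shares describe where the counts lie, not expression per element.

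The rescue experiment asked whether the MCM2-2A mutation changes repeat expression and whether reverting it restores the wild-type level. Members were slightly higher in MCM2-2A#2 than in WT#1, by a median log2 fold change of 0.21, and 61 of the 74 tested members lay above 0. The median of all 879 tested repeat subfamilies was also 0.21, that of DNA transposons was 0.17 and that of ERVL-MaLR was 0.24, while that of genes was 0.007. No member passed an adjusted p below 0.01 with a log2 fold change beyond 0.58 (edgeR), against 2.05% of all repeats, and none passed an adjusted p below 0.05, against 7.74%. DESeq2 called 2 members at the latter threshold, MLT2D and MT2B1, beside 104 of all repeats. With the replicate number as a block, edgeR called 10 of 79 members at that threshold, beside 202 of all repeats. All 5 MT2 members and RMER15 were among them, but whether the numbers pair the cultures is not settled. At an unadjusted p below 0.05, 17 members (23.0%) were higher and 0 lower, beside 29.1% and 0.683% of all repeats. In 6 members (8.11%) every MCM2-2A#2 culture lay above every WT#1 culture and in 0 below, beside 13.5% and 0.341% of all repeats. The shares of members were below those of all repeats on each of these measures, but their median SE was larger, 0.19 beside 0.16. DNA transposons, with a median SE of 0.21, had 5.66% higher at an unadjusted p below 0.05. With TMM factors taken from DNA transposons the median of members was 0.05 and that of genes -0.15.

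**Figure D1:**
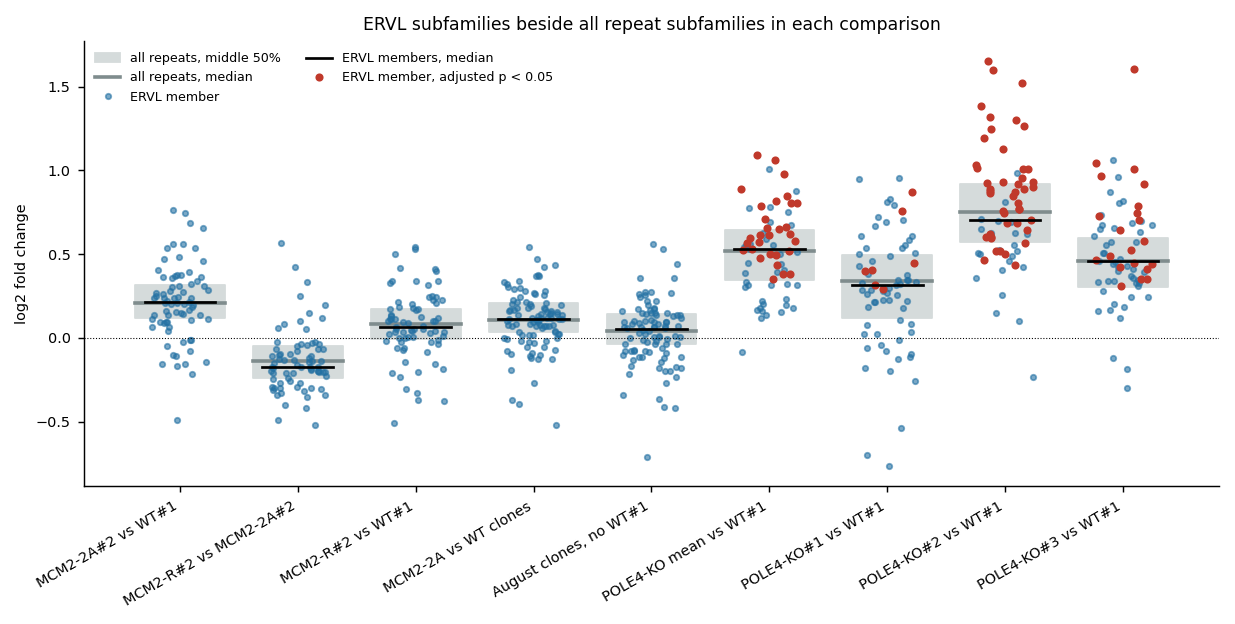
Log2 fold change of each tested member in 9 comparisons (points), beside the median and middle 50% of all tested repeat subfamilies. In the MCM2-2A and MCM2-R comparisons and in the POLE4-KO comparisons alike, the cloud of members sits around the median of all repeats, for example 0.53 beside 0.52 for the mean of the POLE4-KO clones.

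The 5 MT2 members, relatives of the MERVL LTR, moved in 1 direction with small changes of 0.20 to 0.28 (log2). MT2B1 measured 33.9, 32.4, 28.2 and 38 CPM in WT#1 and 39.6, 39.0, 36.5 and 44.8 CPM in MCM2-2A#2. Only WT#1 culture 4 reached into the MCM2-2A#2 range, and the log2 fold change was 0.28 (SE 0.09, edgeR adjusted p = 0.065). MT2C_Mm measured 11.8, 12, 10.9 and 11.4 CPM in WT#1 and 13.4, 13.6, 12.3 and 14.9 CPM in MCM2-2A#2. Its groups did not overlap, and its log2 fold change was 0.24 (edgeR adjusted p = 0.070). MT2B, the most abundant of the 5, measured 69.2, 57.9, 61.3 and 66.4 CPM against 73.1, 67.1, 68.7 and 83.2 CPM. Its groups overlapped, with a log2 fold change of 0.20 (edgeR adjusted p = 0.093). MT2A and MT2B2 gave 0.20 and 0.21. All 5 had unadjusted p-values below 0.05. For comparison, MERVL-int, the internal part of MERVL, had a log2 fold change of 0.62 (edgeR adjusted p = 0.021), and whether it differs from the MT2 members was not tested.

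Values for the internal parts and the ancient LTRs spread more widely than for the MT2 members. The median was 0.31 over the 9 tested internal parts and 0.30 over the 9 tested MLT2 LTRs. MLT2D, an ancient mammalian LTR, measured 2.36, 1.51, 2.08 and 1.91 CPM in WT#1 and 2.86, 3.40, 2.29 and 2.99 CPM in MCM2-2A#2. The groups overlapped only through MCM2-2A#2 culture 3, and the log2 fold change was 0.56 (SE 0.18, edgeR adjusted p = 0.068). ERV3-16A3_I-int, an internal part, measured 0.799, 0.859, 0.645 and 0.765 CPM against 1.27, 1.02, 0.976 and 1.16 CPM. Here the groups were apart, with a log2 fold change of 0.56 (edgeR adjusted p = 0.068). The more abundant internal parts RMER15-int and ERVL-B4-int gave 0.31 (edgeR adjusted p = 0.093) and 0.04 (edgeR adjusted p = 0.82). The other tested internal parts ran from -0.17 for MER68-int to 0.65 for HERV16-int. The 10 tested LTR16 members had a median of 0.09, and 6 of them lay above 0. The largest single values were those of LTR53 (0.76) and LTR16D (0.74), both with few counts and adjusted p-values (edgeR) of 0.19 and 0.27.

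RMER15, which was not named by the rule for named subfamilies and was singled out after its values were seen, measured 153, 158, 148 and 187 CPM in WT#1 and 178, 178, 201 and 182 CPM in MCM2-2A#2. The first 3 WT#1 cultures lay below all MCM2-2A#2 cultures, whereas culture 4 lay among them. The log2 fold change was 0.19 (edgeR adjusted p = 0.083). RMER10A, a further rodent LTR, overlapped widely, with 51.0, 39.6, 40.3 and 61.3 CPM against 52.4, 46.0, 45.5 and 61.9 CPM. WT#1 culture 4 was the highest WT#1 culture for MT2B1, RMER15 and RMER10A. Without it, 4 of 76 members passed an adjusted p below 0.05 (edgeR), namely LTR16D, LTR33A_, MT2B1 and RMER15, beside 89 of all repeats. Without MCM2-2A#2 culture 3 these were MLT2D, MT2B1 and MT2C_Mm, beside 102 of all repeats, and without MCM2-R#2 culture 4 MLT2D, beside 79. WT#1 culture 4 and MCM2-2A#2 culture 3 were the only cultures sequenced in the second run alone, so culture and run cannot be told apart for them. With the run as a covariate, RMER15 alone passed an adjusted p below 0.05 (edgeR), beside 73 of all repeats.

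**Figure D2:**
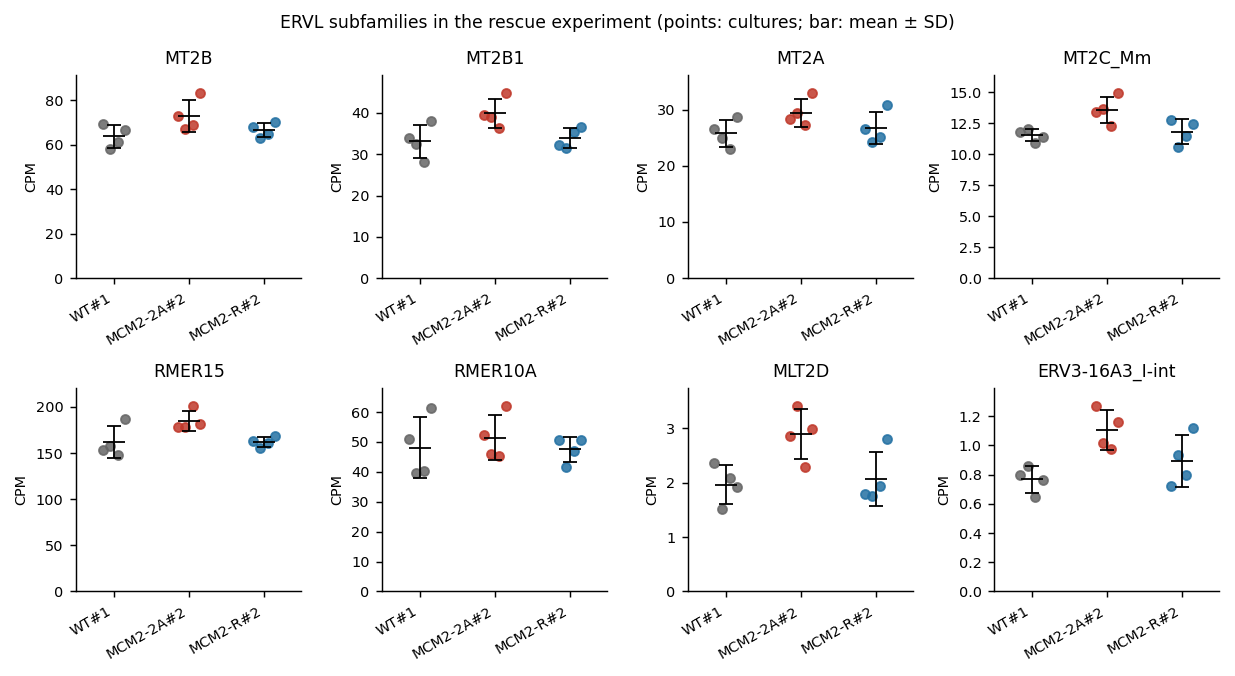
CPM of 8 members in each culture of WT#1, MCM2-2A#2 and MCM2-R#2, with the mean and SD of 4 cultures. MT2C_Mm and ERV3-16A3_I-int are apart between WT#1 and MCM2-2A#2, the other 6 overlap, and MCM2-R#2 overlaps WT#1 in all 8.

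In MCM2-R#2 the medians of the members lay between those of the other lines. Against MCM2-2A#2 the median log2 fold change was -0.17 (all repeats -0.14), and against WT#1 it was 0.07 (all repeats 0.08). Without MCM2-2A#2 culture 4 the first was -0.06, and with the scale taken from DNA transposons -0.05. The second ran from 0.01 without WT#1 culture 3 to 0.12 without WT#1 culture 4, so the data do not settle which line MCM2-R#2 was nearer to. These comparisons share MCM2-2A#2 or WT#1 with the one above and are not independent of it. Against MCM2-2A#2 no member passed either edgeR threshold, beside 0.91% of all repeats lower at the stricter and 2.62% at the looser threshold, and DESeq2 called 0. At an unadjusted p below 0.05, 8 members (10.8%) were lower and 0 higher, beside 13% and 0.796% of all repeats. RMER15, LTR87 and MER21C were apart and lower, beside 8.87% of all repeats, and MER70B was apart and higher, beside 0.569%. RMER15 measured 163, 155, 161 and 169 CPM in MCM2-R#2, below every MCM2-2A#2 culture, with a log2 fold change of -0.19. MT2B1 measured 32.3, 31.4, 35.4 and 36.6 CPM, of which the last is just above the lowest MCM2-2A#2 culture, with a log2 fold change of -0.24 (edgeR adjusted p = 0.24). Against WT#1, no member passed an edgeR threshold (0.114% of all repeats did at the looser one, all lower), and DESeq2 called 0. At an unadjusted p below 0.05, 1 member was higher and 1 lower, beside 6.14% and 1.37% of all repeats. In no member were these groups apart, beside 3.75% of all repeats higher and 0.683% lower. No MCM2-R#2 culture was in the second sequencing run, so the run cannot be fully told apart from this line. With the run as a covariate the median against MCM2-2A#2 was -0.13.

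Some cell type markers moved in the rescue experiment as well. All 5 primitive endoderm genes were higher in MCM2-2A#2 (summed level 20.6 to 32.3 CPM) than in WT#1 (7.68 to 8.53 CPM), each past the stricter edgeR threshold, and MCM2-R#2 was at 6.93 to 7.92 CPM. Of the 8 genes of 2-cell-like cells, 7 were tested and 2 were higher at an adjusted p below 0.05 (edgeR), with summed levels of 27.5 to 36.7 CPM in MCM2-2A#2, 16.9 to 27.0 CPM in WT#1 and 14.5 to 35.9 CPM in MCM2-R#2. Tcstv1 was at 0 in at least 1 culture of both edited lines. Their part in the differences of the members was not tested.

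The clone experiment repeats the MCM2-2A comparison over independent clones, with batch as a covariate. WT#1 and MCM2-2A#1 each contribute a unit in 2 batches. The median log2 fold change of the 98 tested members was 0.11, as for all 1014 repeat subfamilies (0.11). It ran from 0.04 without WT#1 or without MCM2-2A#3 to 0.17 without MCM2-2A#8. No member was called by edgeR, beside 0.394% of all repeats at the stricter and 1.48% at the looser threshold, and DESeq2 called 0. At an unadjusted p below 0.05, 4 members (4.08%) were higher and 3 (3.06%) lower, beside 9.17% and 0.69% of all repeats. In no member were the groups apart, beside 0.592% of all repeats higher. This count pools the batches without the covariate, so it cannot separate batch from genotype. For MT2B1, MCM2-2A#1 measured 27.2 CPM in January and 25.8 CPM in March, against 32.8 to 38.6 CPM in the August wild-type clones. The 3 lower members were LTR80A (-0.52), MER68-int (-0.39) and MER76 (-0.37), and the 4 higher were RMER15, MLT2D, MT2B1 and ERV3-16A3_I-int. Wild-type clones in January were not analysed here, and March holds WT#1 as its only wild-type unit. With batch as a covariate, the January units of MCM2-2A#1 and MCM2-2A#2 therefore add nothing to the estimated MCM2-2A effect. MCM2-2A#2 has no unit in another batch. The 6 August wild-type clones other than WT#1 were therefore also compared with the 5 August MCM2-2A clones, which share no clone with the rescue experiment.

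In that August comparison the median of members was 0.05 (all repeats 0.04), from -0.001 without MCM2-2A#6 to 0.11 without MCM2-2A#8, so its sign rests on single clones. Of the 94 members, 0 were called by edgeR (0.205% and 0.616% of all repeats at the stricter and looser threshold) or by DESeq2. At an unadjusted p below 0.05, 3 members were higher and 2 lower, beside 6.57% and 0.924% of all repeats. In 0 members were all MCM2-2A clones above all wild-type clones, beside 1.23% of all repeats. RMER15 measured 200, 200, 203, 210 and 218 CPM in the 5 MCM2-2A clones. The wild-type clones measured 149, 157, 171, 176, 177 and 209 CPM. Only WT#4, at 209 CPM, lay within the MCM2-2A range, and the log2 fold change was 0.25 (edgeR adjusted p = 0.23). Without WT#4 it was 0.31 (edgeR adjusted p = 0.034). MT2B1 measured 33.9 CPM in MCM2-2A#8 and 42.6, 42.8, 43.9 and 44.6 CPM in the other 4 clones, against 32.8 to 38.6 CPM in the wild-type clones. The log2 fold change was 0.22 (edgeR adjusted p = 0.35), or 0.29 without MCM2-2A#8 (edgeR adjusted p = 0.033). The fits without WT#4 and without MCM2-2A#8 are quoted from 11 that each left out 1 clone, after the values were seen. Each drops the clone that lay in the range of the other genotype, so neither is independent support for a difference. LTR80A, a member with few counts, was apart in the lower direction, at 0.114 to 0.185 CPM against 0.187 to 0.312 CPM (log2 fold change -0.71), beside 0.103% of all repeats. MER76 gave -0.41, with 1 wild-type clone, WT#6, inside the MCM2-2A range. The difference of the MCM2-2A effect between August and March was tested with single libraries as units, although libraries of a clone are not independent. It was past an adjusted p of 0.05 in 0 of 90 members (edgeR), beside 0 of 967 repeats, with 2 members at an unadjusted p below 0.05.

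**Figure D3:**
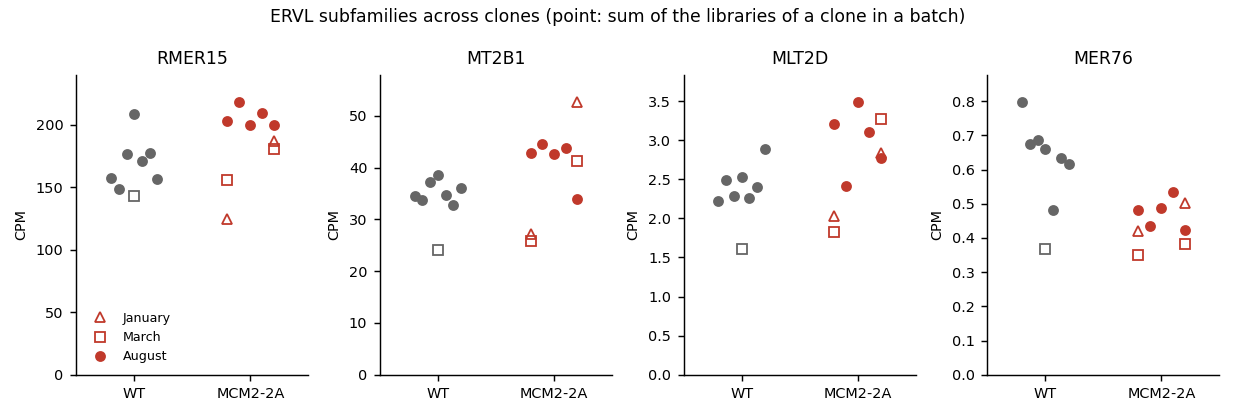
CPM of RMER15, MT2B1, MLT2D and MER76 in each clone unit, wild type and MCM2-2A, with triangles for January, squares for March and circles for August. Among August clones RMER15 is at 200 to 218 CPM in MCM2-2A and at 149 to 209 CPM in wild type, while the January and March MCM2-2A units and the 1 March wild-type unit sit below the August range of their genotype.

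The clones also varied in marker genes. The summed level of 2-cell-like genes was 34.3 to 122 CPM in MCM2-2A units and 7.50 to 50.8 CPM in wild-type units, with 2 of 8 genes higher at an adjusted p below 0.05 (edgeR), and 3 of 5 primitive endoderm genes were higher. Their part in the values of the members was not tested.

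The POLE4 experiment asked what the loss of a leading strand histone-recycling factor does to repeats. Pole4 itself measured 53.6, 58.4 and 57.8 CPM in WT#1. It fell to 2.88, 2.74 and 3.58 CPM in POLE4-KO#1, 6.78, 6.13 and 7.97 CPM in POLE4-KO#2, and 3.17, 2.83 and 4.63 CPM in POLE4-KO#3, so all 9 knockout libraries match their labels. In the mean of the POLE4-KO clones the members rose by a median of 0.53 (log2), and 68 of the 69 tested members lay above 0. All repeats shared this rise, with a median of 0.52, and so did DNA transposons (0.53) and mitochondrial genes (0.62), while the median gene was at -0.007. Of the members, 8 (11.6%) passed the stricter edgeR threshold, beside 20.9% of all repeats. That count fell to 1 of 72 without WT#1 library 2, beside 64 of all repeats, and was 14 without WT#1 library 1 or without POLE4-KO#1 library 2, beside 224 and 235. At an adjusted p below 0.05, 30 members (43.5%) rose and 0 fell, beside 60.5% of all repeats and 50.6% of DNA transposons. At an unadjusted p below 0.05, 36 members (52.2%) rose, beside 67% of all repeats. In 9 members (13.0%) all 9 knockout libraries lay above all WT#1 libraries, beside 22.5% of all repeats. Members have few counts: their median SE was 0.23, beside 0.17 for all repeats and 0.23 for DNA transposons.

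The size and direction of these changes rest on the scale. With TMM factors taken from DNA transposons instead of genes, the median of members was -0.03, that of all repeats -0.03 and that of genes -0.55. No member then passed the stricter threshold, beside 8 of all repeats. RMER15 alone passed an adjusted p below 0.05 (edgeR), being lower, beside 25 of all repeats. The members rose relative to genes and not relative to other repeats. Mitochondrial genes took 3.22% to 3.96% of counts in WT#1 and 4.43% to 6.79% in the knockout libraries, and repeats took 3.58% to 4.16% in WT#1 and 3.77% to 6.02% in the knockouts. Their part in the rise was not tested.

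The 8 members past the stricter threshold were MT2B1, the internal parts ERVL-B4-int and HERVL40-int, the ancient LTRs LTR16A, LTR16C, MLT2B3 and MLT2D, and the rodent RLTR35B_MM. MT2B1 measured 25.3, 22.6 and 26.8 CPM in WT#1. The knockouts measured 31.4, 27.6 and 32.5 CPM (POLE4-KO#1), 43.6, 48.6 and 49.3 CPM (POLE4-KO#2) and 38.8, 36.4 and 41.4 CPM (POLE4-KO#3). Every knockout library was above every WT#1 library, with a mean log2 fold change of 0.62 (SE 0.08, edgeR adjusted p = 7.3e-05). The other MT2 members rose at an adjusted p below 0.05 too, by 0.53 (MT2B), 0.52 (MT2B2), 0.44 (MT2A) and 0.35 (MT2C_Mm). MT2B was apart from WT#1 in all 9 knockout libraries, at 59.5 to 89.9 CPM against 44.1 to 57.7 CPM.

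MLT2D changed by similar amounts in the 3 clones. It measured 1.36, 1.41 and 1.61 CPM in WT#1, 2.11, 2.7 and 2.54 CPM in POLE4-KO#1, 2.81, 3.03 and 2.45 CPM in POLE4-KO#2 and 2.48, 2.74 and 2.15 CPM in POLE4-KO#3. The groups were apart and the log2 fold changes were 0.75, 0.92 and 0.75 in KO#1, KO#2 and KO#3. It was the 1 member that passed the stricter threshold when POLE4-KO#2 was left out. ERVL-B4-int rose from 4.39, 3.44 and 3.45 CPM in WT#1 to between 4.49 and 7.93 CPM in the knockouts, without overlap (log2 fold change 0.61, edgeR adjusted p = 0.00058). LTR16C rose from 2.34, 1.34 and 1.93 CPM in WT#1 to 4.01, 4.24 and 6.22 CPM in POLE4-KO#2, while POLE4-KO#1 at 2.26, 2.53 and 3.43 CPM overlapped with WT#1. HERVL40-int and RLTR35B_MM had the largest mean changes, 1.09 and 1.06, at levels of at most 2.28 CPM in any library. Of the other internal parts, RMER15-int rose by 0.48 (edgeR adjusted p = 0.0015) and ERVL-E-int by 0.65 (edgeR adjusted p = 0.013), and the rest gave 0.30 to 0.56 without passing. By subgroup, the median was 0.69 for LTR16 (7 tested), 0.60 for MLT2 (9), 0.53 for RMER and RLTR (6), 0.53 for internal parts (8), 0.52 for MT2 (5), 0.52 for LTR33 (3), 0.49 for the other LTR-numbered members (17) and 0.48 for the remaining 14.

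**Figure D4:**
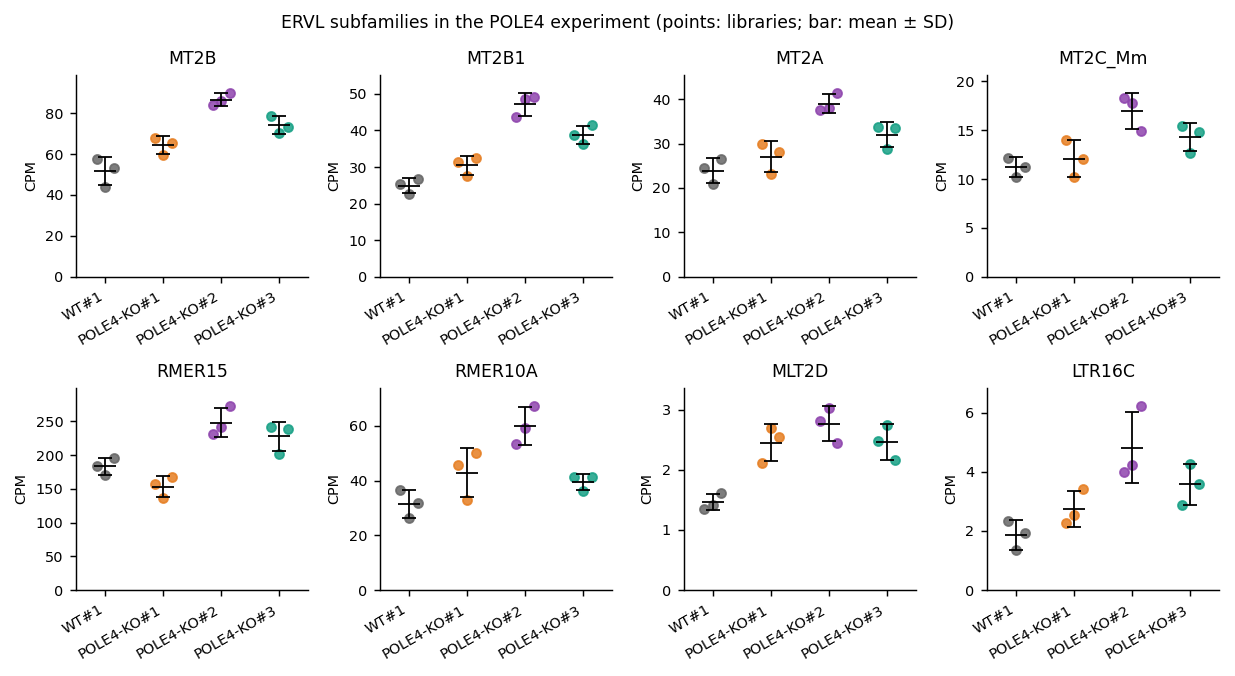
CPM of 8 members in each library of WT#1 and the 3 POLE4-KO clones, with the mean and SD of 3 libraries. MT2B, MT2B1 and MLT2D are above WT#1 in all 9 knockout libraries, while RMER15 is below WT#1 in POLE4-KO#1 and above it in POLE4-KO#2 and POLE4-KO#3.

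The knockout clones were not alike. The median of members was 0.31 in POLE4-KO#1, 0.71 in POLE4-KO#2 and 0.46 in POLE4-KO#3, all against the same WT#1 libraries. At an adjusted p below 0.05 (edgeR), 7 members (10.1%) rose in POLE4-KO#1, 45 (65.2%) in POLE4-KO#2 and 21 (30.4%) in POLE4-KO#3. The same shares of all repeats were 25.8%, 74.9% and 43.7%. At the stricter threshold the counts were 0, 26 and 4, beside 2.78%, 54.8% and 8.11% of all repeats, and 0 members fell, beside 0.116% of all repeats in POLE4-KO#1. A test of the differences among the 3 clones, added after seeing the data, was past an adjusted p of 0.05 in 22 of 69 members (edgeR), beside 38.2% of all repeats. With the scale taken from DNA transposons it was past it in 2 members, RMER15 and LTR16A1, beside 4.06% of all repeats. Without POLE4-KO#2, the mean of the other clones had 1 member past the stricter and 18 past the looser threshold, beside 39 and 361 of all 863 repeats.

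**Figure D5:**
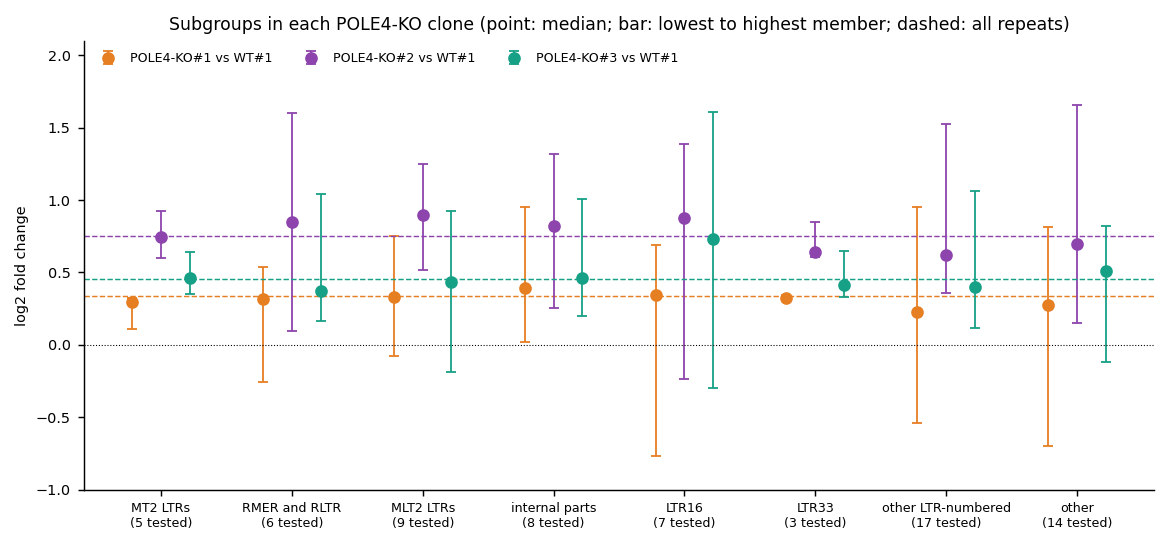
Median log2 fold change against WT#1 of each subgroup of members in each POLE4-KO clone, with the lowest and highest member as a line and the median of all repeats dashed. The MT2 median runs from 0.29 in POLE4-KO#1 to 0.75 in POLE4-KO#2, with POLE4-KO#3 at 0.46 between them.

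RMER15, which held the most counts, had the lowest p of the members in this test. It measured 183, 171 and 196 CPM in WT#1 and 157, 136 and 168 CPM in POLE4-KO#1, all 3 of which lay below WT#1. It measured 231, 241 and 273 CPM in POLE4-KO#2 and 242, 202 and 239 CPM in POLE4-KO#3, all above WT#1 on the scale set by genes. The log2 fold changes were -0.26 (edgeR adjusted p = 0.052), 0.44 and 0.31, the mean over the clones was 0.16 (edgeR adjusted p = 0.074), and the difference among clones had an edgeR adjusted p of 0.00017. Its internal part RMER15-int rose in POLE4-KO#1, where it measured 11.1 to 16 CPM against 9.05 to 11.4 CPM in WT#1. With the scale taken from DNA transposons, RMER15 was lower in the mean over the clones, with a log2 fold change of -0.38 (edgeR adjusted p = 0.021). MERVL-int and MT2_Mm, outside the members, had log2 fold changes of -0.33 and -0.29 in POLE4-KO#1 (edgeR adjusted p = 0.053 and 0.022), where MERVL_2A-int was at 0.27 (edgeR adjusted p = 0.12). The first pair was higher in POLE4-KO#2 (1.44 and 1.30) and POLE4-KO#3 (1.34 and 1.17). The 5 MT2 members were between 0.11 and 0.32 in POLE4-KO#1, and the difference from MT2_Mm was not tested. LTR16A1 measured 4.50 CPM in POLE4-KO#3 library 1 and 0.548 to 1.91 CPM in the other 11 libraries.

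The 2-cell-like and fibroblast marker genes split the clones as well. The summed level of 2-cell-like genes was 5.72 to 8.51 CPM in WT#1, 4.27 to 6.89 CPM in POLE4-KO#1, 21.3 to 27.0 CPM in POLE4-KO#2 and 27.0 to 36.6 CPM in POLE4-KO#3. Of its 7 tested genes, 0, 7 and 6 were higher at an adjusted p below 0.05 (edgeR), and Tcstv1 was at 0 in all WT#1 libraries, and Duxf3 and Tcstv3 were at 0 in at least 1 library of WT#1 and of POLE4-KO#1. The 4 fibroblast genes summed to 69.8 to 70.5 CPM in WT#1, 4.11 to 4.68 CPM in POLE4-KO#1, 7.84 to 9.28 CPM in POLE4-KO#2 and 62.7 to 78.9 CPM in POLE4-KO#3, and 3 of the 3 tested genes were lower in the first 2 clones. Postn was at 0 in at least 1 library of both. The 5 primitive endoderm genes summed to 3.80 to 5.33 CPM in WT#1 and 7.81 to 8.59 CPM in POLE4-KO#1. They summed to 5.12 to 7.06 CPM in POLE4-KO#2 and 7.38 to 8.18 CPM in POLE4-KO#3. Of the 4 tested, 1, 2 and 1 were higher at an adjusted p below 0.05 (edgeR), and 1 was lower in POLE4-KO#1. The part of these markers in the values of the members was not tested.

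Genes that hold ERVL elements silent or activate them were listed with the members, 19 in all, all of them tested. In MCM2-2A#2 against WT#1, 3 were higher at an adjusted p below 0.05 (edgeR), namely Chaf1a (log2 fold change 0.19), a subunit of the chromatin assembly factor CAF-1, Dppa2 (0.32), an activator of the 2-cell programme, and Rif1 (0.17). The CAF-1 subunit Chaf1b was lower (-0.20). The same shares of all genes were 7.06% higher and 6.95% lower. In the mean of the POLE4-KO clones, Atf7ip (0.30), a partner of the H3K9 methyltransferase SETDB1, and Dppa2 (0.21) were higher, beside 9.86% of all genes. Zmym2 (-0.30), Chaf1b (-0.19), Hdac1 (-0.22) and the H3K4 demethylase gene Kdm1a (-0.17) were lower, beside 11.9% of all genes. The single clones differed at this threshold. In POLE4-KO#1, 6 were higher and 1 lower, beside 13.0% and 15.0% of all genes. In POLE4-KO#2 these were 4 and 3, beside 14.7% and 15.8%, and in POLE4-KO#3 2 and 5, beside 7.83% and 5.40%. In the clone experiment edgeR called 0 of the 19, with Dppa2, Duxf3, Kdm1a and Uhrf1 higher and Chaf1b and Suv39h1 lower at an unadjusted p below 0.05, beside 2694 higher and 2019 lower of 23277 genes.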

How the data were processed

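Total RNA was depleted of rRNA and sequenced as strand-specific, paired-end libraries. The authors deposited 1 table of unnormalised counts for each of the 3 experiments, with 55335 rows for genes and 1146 for repeat subfamilies. The submitters' processing notes name Trimmomatic 0.39, STAR 2.7.1a and the mm10 build, and featureCounts and DESeq2 without versions. How reads that map to several copies were counted is not given in the sources used here, and reads shared between similar subfamilies may be split among them. Columns were tied to samples by title, and 3 columns whose line number matches none of the samples were not used.

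Technical runs of a culture were summed, as were the libraries of a clone within a batch (January, March, August). Genes and repeats were fitted together with the edgeR 4.0.16 quasi-likelihood test in R 4.3.3, after filterByExpr (min.count 10, min.total.count 15), with TMM factors from genes, and p-values were adjusted by Benjamini-Hochberg over all genes and over all repeats separately. The stricter threshold was an adjusted p below 0.01 with a log2 fold change beyond 0.58, and the looser an adjusted p below 0.05. Standard errors were derived from the fold change and its F statistic (log2 fold change over the root of F). Scripts were tested on simulated data. The members, the lists and the rule for named subfamilies were chosen with earlier results of these data known. Named were members called in any comparison (the 10 with the lowest p where over 25), the 5 highest and 3 lowest fold changes in the MCM2-2A, clone and POLE4 comparisons, the MT2 members and the internal parts. Alternatives were DESeq2 1.42.0, other scaling factors, no filter, joint adjustment, single runs or libraries, a run or replicate term, and leaving out each sample or clone. In the rescue experiment 5 of 12 same-numbered pairs of cultures correlated above 0.1, as did 6 of 36 other pairs. The share was larger among same-numbered pairs, but most of them did not pass, so pairing is not settled. The main fit took the cultures as unpaired, and the replicate block is given as an alternative. Among POLE4-KO clones 9 of 9 same-numbered pairs did, and 0 of 18 others, so the numbers pair these libraries, but the WT#1 columns carry other numbers than the sample titles and were tied to the group, not to single samples.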

Additional observations from a re-analysis of the deposited data

Results flagged for a closer look

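Of 168 groups of 4 to 7 units tested for a value far from the others, 16 held one, and chance alone flags about 1 in 20 groups. In MCM2-2A#2, culture 4 was high for ERVL-int (1.77 CPM), MER76 (0.572 CPM) and MT2B2 (27.3 CPM), and culture 3 was high for RMER15 (201 CPM). In MCM2-R#2, culture 1 was high for ERVL-E-int (2.30 CPM). In WT#1 of the rescue experiment, culture 4 was high for HERV16-int (0.50 CPM), HERVL40-int (0.648 CPM) and RLTR35B_MM (1.41 CPM), and culture 2 was low for LTR69 (0.103 CPM). Among the August clones, MCM2-2A#8 was low for LTR16D (0.0979 CPM), MT2B1 (33.9 CPM), MT2B2 (20.5 CPM) and RLTR28 (11 CPM), MCM2-2A#4 was high for MER68-int (0.658 CPM), MCM2-2A#7 was low for MLT2E (0.0457 CPM), and WT#8 was high for MT2B (88.1 CPM).

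Levels of some members differed among the POLE4-KO clones in a test of the difference itself (edgeR, 2 degrees of freedom, added after seeing the data). Each clone is a single line, so variation between clones and a differing effect of the knockout cannot be told apart. The lowest adjusted p-values (edgeR) were those of RMER15 (0.00017) and MT2B1 (0.00036). RMER15 was 0.69 (log2) higher in POLE4-KO#2 than in POLE4-KO#1, and MT2B1 was 0.63 higher. Among the subfamilies named by the rule, the others were ERVL-B4-int (edgeR adjusted p = 0.0055), MT2A (0.0068), MT2B (0.0078), RMER10A (0.011), LTR16E1 (0.011), RLTR28 (0.017), MER21B (0.018), MT2B2 (0.019) and MT2C_Mm (0.024). LTR50 (0.030), RLTR35B_MM (0.032), MER76 (0.034) and LTR16C (0.034) followed. The rest of the 22 members past the threshold, outside that rule, were RMER10B (0.015), MER54A (0.018), LTR40a (0.022), LTR16A1 (0.023), MLT2F (0.039), LTR33 (0.047) and LTR82A (0.049). With the scale taken from DNA transposons, RMER15 and LTR16A1 stayed past it.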

How the results depend on the processing

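With TMM factors from DNA transposons the median of members was 0.0539 in MCM2-2A#2 against WT#1, -0.0486 in MCM2-R#2 against MCM2-2A#2 and -0.0284 in the mean of the POLE4-KO clones. In the latter 0 members then passed the stricter and 1 the looser threshold, 2 differed among clones, and MT2A (-0.11), MT2B2 (-0.0284), MT2B (-0.0104), MT2C_Mm (-0.19), RMER15-int (-0.0657) and RMER15 (-0.38) turned negative. Whether genes or DNA transposons are the steadier reference was not tested.

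In MCM2-2A#2 against WT#1 the count at an adjusted p below 0.05 was 2 without the filter, 2 with DESeq2, 1 with the run as a covariate (RMER15), beside 97, 104 and 73 of all repeats, and 0 to 4 when each culture was left out, where the median was 0.16 to 0.26. With the replicate number as a block it was 10 of 79 members, beside 202 of all repeats. These were LTR33A_, MER21B, MER21C, MT2A, MT2B1, MT2B2, MT2B, MT2C_Mm, RMER15-int and RMER15. Whether the numbers pair the cultures is not settled. In MCM2-R#2 against MCM2-2A#2 leaving out a culture gave 0 to 1 members and medians of -0.19 to -0.06, and against WT#1 medians of 0.01 to 0.12. In the clones RMER15 was the 1 member called with single libraries as units, beside 43 of all repeats in all batches and 20 in August alone. With the replicate block on the August libraries it was again the 1 member called, beside 21 of all repeats with WT#1 and 22 without. Libraries of a clone are not independent, so these settings overstate the number of replicates. Leaving out each clone gave 0 to 1 members and medians of 0.04 to 0.17 in all batches (RMER15, without MCM2-2A#1) and 0 to 1 and -0.001 to 0.11 in August.

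For the POLE4-KO mean, the stricter count was 15 without the filter, 5 with adjustment over genes and repeats together and 9 with DESeq2 (201, 142 and 177 of all repeats), and 1 without POLE4-KO#2 (looser count 18, median 0.41). It was 0, 26 and 4 in POLE4-KO#1, POLE4-KO#2 and POLE4-KO#3 alone, with 7 past the looser threshold in POLE4-KO#1 and medians of 0.31 and 0.71 in POLE4-KO#1 and POLE4-KO#2. Leaving out each library gave 1 to 14 members at the stricter threshold, 20 to 36 at the looser one and medians of 0.44 to 0.61. The number that differed among clones was 9 to 22. It was 9 without POLE4-KO#2 library 2, 12 without POLE4-KO#2 library 3 and 14 without POLE4-KO#1 library 2. The shares of all repeats were then 14.1%, 17.6% and 27.1%. Among the 9 knockout libraries alone it was 31 of 72 with the replicate block and 23 of 68 without, beside 51.8% and 38.7% of all repeats. No paired analysis was possible against WT#1 because, although its sample titles are numbered 1 to 3 like the knockouts, its columns carry the numbers 6 to 8 and cannot be tied to single titles. The causes of these changes were not tested.

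The fold changes of single named subfamilies were followed under all alternatives at the looser threshold. Of these values, 4146 kept their direction and side of the threshold, or changed sign by less than their SE without passing it. With direction kept, 41 newly passed it and 43 no longer did. A further 23 changed sign by more than that without passing it under either setting, and 6 changed sign while passing it under at least 1. Depth limits the rarer members: 36, 12 and 41 members were not tested in the rescue, clone and POLE4 experiments, and the spread of fold changes was larger among the members with counts below the median (SD 0.30 against 0.13 in the rescue and 0.29 against 0.19 in the POLE4 experiment).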
